A study of Mus musculus and Rattus norvegicus with 28 samples.

Results

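Imprinted genes are expressed from only one of the 2 parental copies, and many of them set how fast the fetus and newborn grow. The 10 genes described here were taken by name from the RNA-seq files: Dlk1, Meg3, Peg3, Plagl1, Cdkn1c, Grb10, Mest, Peg10, Ndn and Zim1. All 10 were named among the 55450 genes of the mouse files and 8 of them among the 32623 genes of the rat files, where Meg3 and Peg10 carried no value under those names. Each level is FPKM, fragments per kilobase of transcript scaled to sequencing depth, summed over the transcripts of the gene.

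The study followed heart muscle cells through birth. Left ventricles of C57BL/6 mice of both sexes were digested at embryonic day 18.5 (E18.5) and on postnatal days 1, 3 and 7 (P1, P3 and P7), and non-muscle cells were thinned by letting them attach to plastic; there were 2 RNA-seq and 2 ATAC-seq libraries at each age. ATAC-seq marks chromatin that a transposase can enter. Neonatal ventricular cardiomyocytes of P1 Sprague Dawley rats, held in culture, received either DMSO, the solvent, or 100 nM trichostatin A (TSA), which inhibits histone deacetylases, with 3 RNA-seq libraries each. The mice are inbred, so the 2 parental copies of a gene could not be told apart and every level is the sum of both.

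By function the genes fall into a few roles. Dlk1 encodes a membrane protein of the Notch ligand family, Grb10 an adaptor that restrains insulin and IGF signalling, and Cdkn1c the cyclin-dependent kinase inhibitor p57. Plagl1, Peg3 and Zim1 encode zinc finger proteins, and Ndn encodes necdin, a MAGE family protein linked to exit from the cell cycle. Mest encodes a protein with a hydrolase fold, Peg10 derives from a retrotransposon and is needed in the placenta, and Meg3 is a long noncoding RNA. Cdkn1c, Grb10 in most tissues, Meg3 and Zim1 are active on the maternal copy, and the others on the paternal one. Dlk1 and Meg3 share a domain on chromosome 12, and Peg3 and Zim1 a domain on chromosome 7.

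Aligned reads numbered 29.3 to 37.5 M in the mouse RNA-seq libraries and 28.2 to 38.5 M in the rat ones. Cell type markers moved with age. The summed FPKM of 16 cardiomyocyte genes was 32339 and 41958 at E18.5, then 15955 and 25322 on P1, 10569 and 8702 on P3, and lastly 2757 and 1241 on P7. That of 12 fibroblast genes was 554 and 546 at E18.5, then 1741 and 2010 on P1, 2236 and 2368 on P3, and lastly 3829 and 4675 on P7. Tnnt2, the cardiac troponin T gene, read 6141 and 7172 FPKM at E18.5 against 710 and 330 at P7, and Dcn, a fibroblast matrix gene, 85.5 and 84.5 against 626 and 617, while Pecam1, of endothelium, read 77.8 and 41.9 against 55.6 and 47.8. None of the 16 cardiomyocyte genes was at 0 throughout. Globin and other erythroid genes summed to 29046 and 35395 FPKM at E18.5 and to between 4.71 and 41.0 at later ages. In such bulk samples fewer cells of a type and less RNA per cell cannot be told apart, and the part of these shifts in the changes below was not tested.

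Chromatin near the genes is shown first, because 4 stretches of sequence carry what the peak lists say. All are read from the mouse genome mm10 on the strand of the gene. The intronic Peg3 and upstream Zim1 stretches overlapped peaks in all 8 libraries, and the Grb10 stretch overlapped a peak at every age but E18.5. The Peg10 stretch was missed in 1 library. In some libraries the peak covered only a part of the stretch. Capitals mark, in Peg3, matches to GCCATNTT (the core letters of the YY1 motif), in Grb10, matches to TGANTCA (the AP-1 motif), and in the other 2, CpG pairs.
Peg3, first intron, chr7:6728376-6728675, minus strand: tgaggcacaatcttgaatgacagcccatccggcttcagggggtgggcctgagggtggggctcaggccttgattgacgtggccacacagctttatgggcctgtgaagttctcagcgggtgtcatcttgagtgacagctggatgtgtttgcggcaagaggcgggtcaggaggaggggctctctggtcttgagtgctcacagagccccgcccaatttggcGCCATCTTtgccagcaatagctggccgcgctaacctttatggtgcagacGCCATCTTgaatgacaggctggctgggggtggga
Zim1, upstream of the start, chr7:6696451-6696682, minus strand: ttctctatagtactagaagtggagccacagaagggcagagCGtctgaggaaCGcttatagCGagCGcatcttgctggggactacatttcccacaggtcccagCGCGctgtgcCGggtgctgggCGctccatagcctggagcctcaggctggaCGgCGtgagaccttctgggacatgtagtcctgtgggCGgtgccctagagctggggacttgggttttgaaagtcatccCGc
Grb10, intron, chr11:11939650-11939949, minus strand: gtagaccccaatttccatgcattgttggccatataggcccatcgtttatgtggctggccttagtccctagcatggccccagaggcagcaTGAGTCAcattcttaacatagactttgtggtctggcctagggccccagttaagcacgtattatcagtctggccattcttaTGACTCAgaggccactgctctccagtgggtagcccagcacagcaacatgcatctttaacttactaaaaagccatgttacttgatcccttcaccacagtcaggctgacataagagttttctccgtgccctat
Peg10, intron, chr6:4749058-4749357, plus strand: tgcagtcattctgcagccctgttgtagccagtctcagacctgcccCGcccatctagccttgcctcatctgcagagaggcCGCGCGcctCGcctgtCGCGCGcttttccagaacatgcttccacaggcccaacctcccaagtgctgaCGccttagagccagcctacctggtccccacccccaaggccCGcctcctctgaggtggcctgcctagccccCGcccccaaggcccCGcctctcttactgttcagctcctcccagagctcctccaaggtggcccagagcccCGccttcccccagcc

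The Peg3 window held 2 matches to the YY1 letters, counted on both strands. Of 95088 windows of 300 bases placed on the summits of the P3 replicate 1 peaks, 4.61% held at least 1 such match and 0.166% held 2 or more. The whole Peg3 region, 1545 bases from position 6727447 to 6728991, held 8 matches, and no background of that length was counted. The Grb10 window held 2 matches to TGANTCA, against 28.4% of the same windows with at least 1 and 4.59% with 2 or more. Its GC content was 49.0%, and it held 3 CpG pairs, where the Zim1 stretch held 12 in 232 bases. The median summit window held 4 CpG pairs in 300 bases. The letters of the ZFP57, MEF2 and TATA motifs were looked for as well. The Peg3 window held 1 match to those of ZFP57 (TGCCGC), and the Grb10 window 1 to those of YY1. A match describes letters in the window and not a bound factor.

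The Peg3 region lay 1894 bp into the gene and was listed in every library. Its fold enrichment, the pileup at the summit over the local background, ran from 5.03 to 6.37 when the highest summit of each library was taken. The start of Peg3 itself had a peak in only 4 libraries, P1 replicate 1, both at P3 and P7 replicate 1, with fold enrichments of 3.61 to 4.27. The peak inside the gene was thus listed in more libraries than the one at the start.

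The peak at the Zim1 start was among the higher ones of the lists although the gene gave little RNA. Its fold enrichment was 8.89 and 7.01 at E18.5, then 14.3 and 7.52 on P1, 15.0 and 12.8 on P3, and lastly 9.17 and 11.7 on P7. Ranked by q-value within its own list, it stood at percentiles 81.5 and 74.0 at E18.5, 98.9 and 94.2 on P1, 99.8 and 95.7 on P3, and 96.3 and 99.6 on P7. The 8 lists differ in length, which moves such a percentile, and were not normalised to each other, so no change with age is read from these values.

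Grb10 had a peak after birth that was not listed before it. The region, 465 bases between positions 11939582 and 11940046 in an intron near the far end of the gene, was not in either E18.5 list. Its fold enrichment was 9.58 and 5.69 on P1, 12.7 and 13.9 on P3, and 8.03 and 6.71 on P7. In each of these 6 libraries it was among the 13149 highest peaks, the length of the shortest E18.5 list. It lay 1183 bp upstream of the start of a minor transcript and 97.6 kb from that of the main one. A second region, 741 bases long, was seen in E18.5 replicate 2, in P1 replicate 2 and in all 4 later libraries. Its P3 replicate 2 summit lay 5 bp into another minor transcript, which starts at 12026324. The other summits lay further into that transcript, at 12025820 to 12026059, and only the P3 replicate 2 peak reached its start. The start of the main transcript had a peak in P3 replicate 1 only.

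A peak at Ndn was listed at P3 and P7 alone. The region from 62348137 to 62348737 on chromosome 7 was in no E18.5 or P1 list, and its fold enrichment was 7.97 and 5.52 at P3 and 4.57 and 4.33 at P7. It stood at percentiles 74.3 and 32.0 of the P3 lists and 39.6 and 37.5 of the P7 lists, outside the 13149 highest peaks of each, which is as many as the shortest E18.5 list held. A gain cannot be told apart here from the greater length of the later lists. Its summit lay 16 bp from the RefSeq start of Ndn, although 1724 bp into the longer GENCODE transcript used for the RNA. At Plagl1, the summit lay 34 bp from a transcript start, and a peak was present in 7 libraries, all but P1 replicate 2, with fold enrichments of 6.25 to 8.72. The Cdkn1c start had a peak at E18.5, at 4.13 and 6.80, in neither P1 library, at 5.38 and 4.55 at P3, and in P7 replicate 2 alone at 4.12. The start of the main Mest transcript had a peak in 6 libraries, at 4.14 to 5.18, and the Peg10 intron in 7, at 4.70 to 8.42. Meg3 had a peak 90 bp from its upstream start in both P3 libraries. Another, 790 bp after a further start, was in the same libraries at 4.55 and 5.46. One more lay 188 bp from a downstream start in P1 replicate 1 and P3 replicate 1. Dlk1 had peaks in P3 replicate 1 only.

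**Figure D1:**
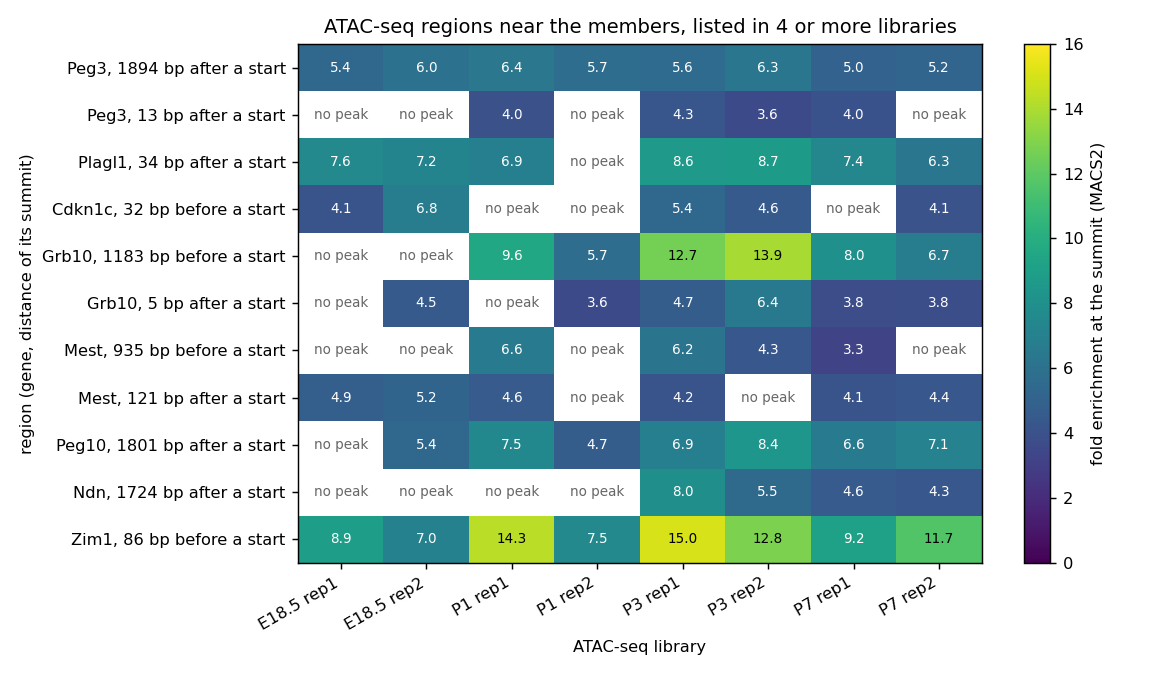
Fold enrichment at the summit of each accessible region near the 10 genes that was listed in at least 4 of 8 ATAC-seq libraries. Rows are regions with the distance of their best-scoring summit from the nearest transcript start, columns are libraries, and white cells had no listed peak. The Zim1 start and the Peg3 intron were listed in all 8 libraries, while the Grb10 intron (first listed at P1) and Ndn (first listed at P3) were not listed at E18.5.

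Counted by gene, a peak within 2.5 kb of a transcript start was found in both libraries for 5 of 10 genes at E18.5 (Peg3, Plagl1, Cdkn1c, Mest and Zim1), against 56.7% of the 13979 genes tested for RNA. The count was 4 of 10 at P1 against 41.3%, 9 of 10 at P3 against 87.5%, and 7 of 10 at P7 against 83.2%. Read against these shares, no age stood out. The lists ran from 13149 peaks in E18.5 replicate 1 to 95257 in P3 replicate 1. Meg3 and Ndn were without one in either E18.5 library and had one in each P3 library, 2 of 10 against 15.6%. Ndn alone did so for P7, 1 of 10 against 12.1%, and Cdkn1c alone had peaks in both E18.5 libraries and in neither at P1, 1 of 10 against 3.81%. When each list was cut to its 13149 highest peaks, the count at P3 was 2 of 10, Grb10 and Zim1, against 37.3% of all genes, and neither Meg3 nor Ndn was among them. Peak names in the lists of E18.5 replicate 1 and P7 replicate 1 carried the same prefix although the lists differed in length (13149 and 49113). Without those libraries, the other E18.5 library had peaks at 7 of 10 genes and the other P7 library at 8. The shares of all genes in these single libraries are not set beside the counts, so nothing is read from them.

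In RNA, most of the 10 genes were at their highest before birth. At P7 against E18.5, 6 fell (Dlk1, Mest, Plagl1, Cdkn1c, Grb10 and Zim1), 2 rose (Ndn and Peg10), and Peg3 and Meg3 did not pass the test. To be called, a gene needed a log2 change of FPKM + 1 beyond 1 in either direction and an adjusted p below 0.05 in limma over all 8 mouse libraries; over all 13979 genes tested 12.3% were called lower and 15.4% higher at P7. The median log2 change of the 10 genes was -1.22, where that of all genes tested was 0.14. At P1 against E18.5, 3 fell (Dlk1, Plagl1 and Cdkn1c) and 2 rose (Peg3 and Ndn), against 6.06% and 10.1% of all genes. At P3, 4 fell, Zim1 having joined the former 3, and Ndn rose, against 8.88% and 13%. These comparisons share the 2 E18.5 libraries. Between P1 and P7, which share none of them, Peg3, Plagl1 and Mest fell and Peg10 rose, against 5.46% lower and 3.45% higher.

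**Figure D2:**
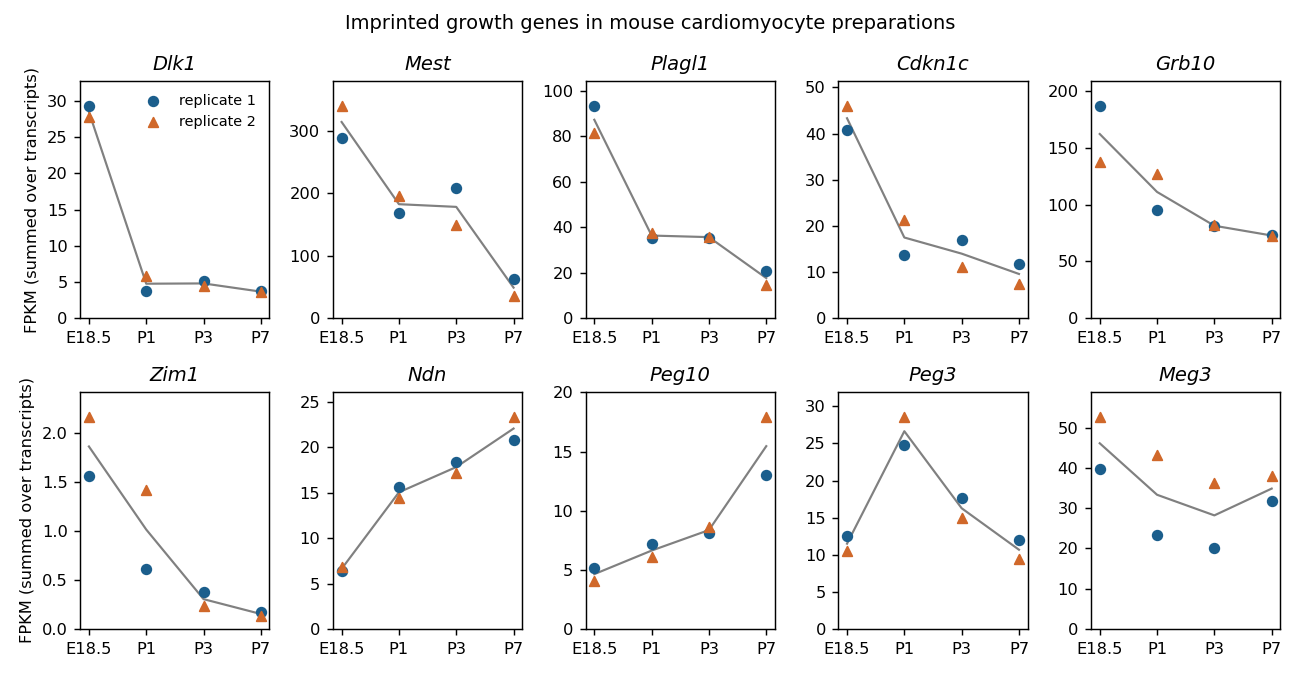
FPKM of each of the 10 genes (vertical axis, from 0, on its own scale) at E18.5, P1, P3 and P7; circles and triangles are the 2 libraries of each age and the line joins their means. Dlk1 drops from between 27.7 and 29.2 at E18.5 to between 3.73 and 5.80 at P1, Mest falls again between P3 and P7, Ndn and Peg10 climb, and Peg3 peaks at P1.

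Of the 10 genes, Dlk1 had the largest fall at P1. It read 29.2 and 27.7 FPKM at E18.5, then 3.73 and 5.80 on P1, 5.17 and 4.44 on P3, and lastly 3.73 and 3.61 on P7. Every postnatal library was below both E18.5 libraries, and the P1 libraries spanned those of P3. The log2 change was -2.38 ± 0.19 (SE) at P1 with an adjusted p of 0.000124 (limma, 2 libraries per group), and -2.66 ± 0.19 at P7. From P1 to P7 the log2 difference was -0.28 ± 0.19, with an adjusted p of 0.385. Its size hung on the setting. Over other settings and with a library left out it ran from -0.85 to -0.018, each under the size threshold. Estimated reads were 465 and 420 at P1 and 230 and 231 at P7.

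Grb10 was lower at each later age. It read 186 and 138 FPKM at E18.5, then 95.7 and 127 on P1, 81.0 and 81.8 on P3, and lastly 73.4 and 72.2 on P7. The ages did not overlap in any step. Only the P7 difference passed both thresholds, with a log2 change of -1.13 ± 0.18 and an adjusted p of 0.00104 in limma; without E18.5 replicate 1 it was -0.91, and on TPM -0.87, under the size threshold in both cases. At P3 the log2 difference of -0.97 lay just under that threshold, and with size factors it was -1.19.

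Cdkn1c, the cell cycle inhibitor gene, read 40.7 and 45.9 FPKM at E18.5, then 13.7 and 21.2 on P1, 16.9 and 11.0 on P3, and lastly 11.7 and 7.45 on P7. The later ages overlapped their neighbours but none reached E18.5. Its log2 change was -1.29 ± 0.28 at P1 and -2.09 ± 0.28 at P7, with adjusted p of 0.00813 and 0.000456 in limma. The P1 call was lost without E18.5 replicate 2 (adjusted p 0.0538) or without P1 replicate 1 (0.0537).

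Plagl1 fell in 2 steps. Its levels were 93.1 and 81.3 FPKM at E18.5, then 35.1 and 37.6 on P1, 35.5 and 35.8 on P3, and lastly 20.8 and 14.4 on P7. The 4 libraries of P1 and P3 lay between 35.1 and 37.6, and the P7 libraries were below them. The log2 change was -1.24 ± 0.17 at P1 and -2.26 ± 0.17 at P7 against E18.5, and -1.02 ± 0.17 from P1 to P7, with an adjusted p of 0.00548 for the last in limma. That last value was -0.97 without P1 replicate 2 and -0.77 without P7 replicate 2, both under the size threshold.

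Peg3 moved differently from the other zinc finger genes. It read 12.5 and 10.5 FPKM at E18.5, then 24.7 and 28.5 on P1, 17.6 and 14.9 on P3, and lastly 12.0 and 9.39 on P7. The P1 libraries were above all others, and the P7 libraries overlapped E18.5. The log2 change was 1.15 ± 0.17 at P1, adjusted p 0.00152, and -1.25 ± 0.17 from P1 to P7, adjusted p 0.00233, both by limma, while at P7 against E18.5 it was -0.10 ± 0.17. With size factors in place of the authors' scaling the P1 change was 0.96, under the size threshold.

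Zim1, which neighbours Peg3, was the lowest of the 10 genes at every age. It read 1.56 and 2.16 FPKM at E18.5, then 0.611 and 1.42 on P1, 0.376 and 0.232 on P3, and lastly 0.171 and 0.134 on P7. These levels stand for an estimated 353 and 502 reads at E18.5 and 44 and 37 at P7. On the log2 scale of FPKM + 1, which understates change at such low levels, it fell by 1.31 ± 0.22 at P7 with an adjusted p of 0.00154 (limma); the P3 call was lost without E18.5 replicate 2, at -0.98. The size of the P7 change hung on the scale: it was -2.95 with a pseudocount of 0.1 and -3.52 with limma-voom on estimated reads. From P1 to P7 the log2 difference was -0.78, under the size threshold, but -2.05 with the smaller pseudocount, -1.21 on TPM and -2.50 with limma-voom, each past both thresholds, as was -1.07 without P1 replicate 1.

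Ndn was one of the 2 genes that rose. Its levels were 6.36 and 6.87 FPKM at E18.5, then 15.6 and 14.5 on P1, 18.4 and 17.2 on P3, and lastly 20.8 and 23.3 on P7. No age overlapped the next, and the order of the ages was the order of the levels. Its log2 change was 1.08 ± 0.13 at P1 and, further on, 1.31 ± 0.13 at P3 and 1.60 ± 0.13 at P7, with, for the last, an adjusted p of 4.47e-05 in limma. With size factors the P1 change was 0.89, under the size threshold.

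Peg10 rose late. It read 5.17 and 4.09 FPKM at E18.5, then 7.20 and 6.05 on P1, 8.11 and 8.61 on P3, and lastly 13.002 and 17.9 on P7, again with no overlap between ages. Against E18.5 the P7 log2 change was 1.54 ± 0.19, and from P1 to P7 it was 1.10 ± 0.19, with adjusted p of 0.000310 and 0.00632 in limma. The P1 to P7 change was 0.99 without P1 replicate 2 and 0.88 without P7 replicate 2. Both Peg10 and Ndn rose with age, as did the summed fibroblast genes and the summed smooth muscle and pericyte genes. A link between them was not tested.

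Mest was the most abundant of the 10 genes at E18.5, P1 and P3. It read 289 and 338 FPKM at E18.5, then 169 and 196 on P1, 207 and 149 on P3, and lastly 62.2 and 35.6 on P7. The P1 and P3 libraries overlapped, and the P7 libraries were below all others. Its log2 change was -0.78 ± 0.26 at P1 and -0.83 ± 0.26 at P3, neither past the size threshold, and -2.70 ± 0.26 at P7 with an adjusted p of 8.94e-05 in limma. From P1 to P7 it fell by 1.93 ± 0.26. With size factors the P3 change against E18.5 was -1.05, past both thresholds.

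Meg3 was uneven between the libraries of an age. It read 39.6 and 52.6 FPKM at E18.5, then 23.4 and 43.2 on P1, 20.1 and 36.3 on P3, and lastly 31.7 and 37.9 on P7. The second library was the higher one at every age. The P1 and E18.5 libraries overlapped, while those of P3 and P7 lay below both E18.5 libraries. At P3 the log2 difference was -0.73, with an adjusted p of 0.104 in limma. With size factors it was -0.95 with an adjusted p of 0.0487, under the size threshold. The log2 difference was -0.39 ± 0.34 at P7, with an adjusted p of 0.355 in limma. Its neighbour Rian, another noncoding RNA of the same domain, rose from 30.3 and 27.4 FPKM at E18.5 to 67.0 and 87.7 at P7, a log2 change of 1.38 ± 0.15.

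**Figure D3:**
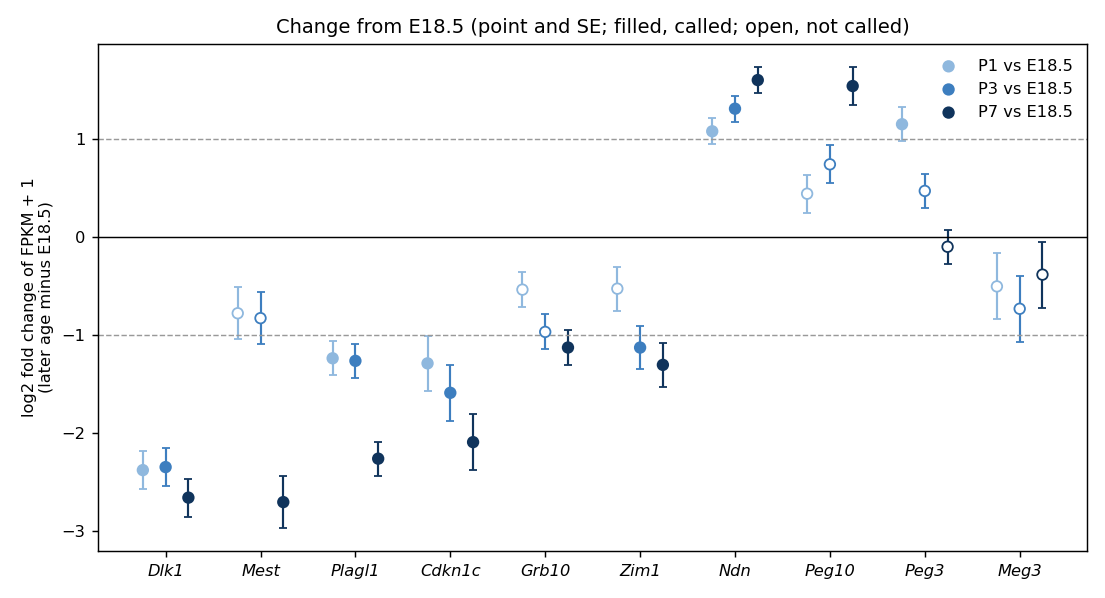
Log2 fold change of FPKM + 1 of each of the 10 genes at P1, P3 and P7 minus E18.5 (point and SE, 2 libraries per age); filled points passed both thresholds, open points did not, and dashed lines mark a log2 change of 1 in either direction. Mest lies at -0.78 at P1, -0.83 at P3 and -2.70 at P7, whereas Dlk1 lies between -2.66 and -2.35 at all 3 ages.

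Because FPKM is scaled by transcript length, levels can be ordered between genes. At E18.5 the order was Mest, Grb10, Plagl1, Meg3, Cdkn1c, Dlk1, Peg3, Ndn, Peg10 and Zim1, and only Meg3 and Cdkn1c overlapped. At P7 it was Grb10, Mest, Meg3, Ndn, Plagl1, Peg10, Peg3, Cdkn1c, Dlk1 and Zim1. Mest overlapped Meg3 there, Plagl1 overlapped both Ndn and Peg10, and Peg3 overlapped Cdkn1c. Ndn had thus moved from the eighth place to the fourth, and Dlk1 from the sixth to the ninth.

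Of 46 other imprinted genes listed, 32 were tested in mouse. At P7 against E18.5, 10 fell and 6 rose, against 12.3% lower and 15.4% higher of all genes tested. Their median log2 change was -0.29. Those in the domain of one of the 10 genes that fell were Ddc, by 4.05 on the log2 scale, Kcnq1 (by 3.02), Phlda2 (by 1.57), Snrpn (by 1.41) and Asb4 (from 8.16 and 5.29 FPKM before birth to 2.42 and 2.27), and those that rose were Ascl2 (1.98), Peg12 (1.55), Rian (1.38) and Sgce (1.05). In other domains H19, Igf2, Zdbf2, Igf2r and Airn fell, and Impact (1.77) and H13 (1.29) rose. H19, a growth-limiting noncoding RNA, went from 577 and 611 FPKM before birth to 55.2 and 58.0. Igf2, the fetal growth factor of the same domain, read 102 and 309 at E18.5 and 14.6 and 27.5 at P7, and Igf2r, the receptor that clears it, 87.6 and 72.3 and then 33.9 and 30.7. Sgce and Peg10 start next to each other on opposite strands and the library kit does not mark strand, so reads between them cannot be assigned by strand. Where Igf2r and Airn overlap, and where Mest and Copg2 do, reads cannot be assigned by strand either. Reads of Snrpn may be shared with its overlapping transcripts.

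For each of the 10 genes, the tested gene of most similar course over the 8 mouse libraries was found by Pearson's r of log2(FPKM + 1). The libraries share 4 ages, so these values describe the shape over age and no more. They were Acsl3 for Dlk1 (r = 0.997), Ubqln4 for Plagl1 (0.997), Pla2g16 for Cdkn1c (0.995), Asb4 for Grb10 (0.997), Pgap3 for Zim1 (0.992), Ssr1 for Ndn (0.999), Fam102b for Peg10 (0.993), Slc17a7 for Peg3 (0.984) and Rcor2 for Meg3 (0.931). The course of Mest was nearest to that of Pln, the phospholamban gene and one of the 16 cardiomyocyte markers (r = 0.988). Within the domains, r was 0.57 between Dlk1 and Meg3 and 0.13 between Peg3 and Zim1.

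In the rat cells the comparison asked what inhibition of histone deacetylases did. One of the 8 genes with values, Dlk1, was called higher with TSA and none lower, against 1.81% and 0.316% of 13625 genes tested. Replicate 3 of each group stood apart from the others: Spearman's rho over tested genes was 0.985 and 0.986 between replicates 1 and 2 of DMSO and of TSA, but 0.951 to 0.965 with replicate 3. The summed cardiomyocyte genes read 26765 FPKM in DMSO replicate 3 and 38585 in TSA replicate 3, against 14998 to 17792 in the other 4 libraries. The genes of that list did not move alike: Nppa, the atrial natriuretic peptide gene, read 7396 and 10952 in the replicate 3 libraries and 1068 to 1182 in the others, whereas Atp2a2, the calcium pump gene, read 445 in DMSO replicate 3 against 1154 and 1253 in the other DMSO libraries. Both were named after their values were seen. Some other marker sums did not overlap between treatments, which describes the values and is not a test. The summed 11 fibroblast genes read 7471, 8140 and 8247 FPKM with DMSO and 7082, 6792 and 4452 with TSA. The 6 erythroid genes read 25.9, 18.0 and 4.18 against 32.3, 44.8 and 56.1, and neither sum overlapped. Of the 11 fibroblast genes tested, 1 was called higher and 0 lower, with a median log2 difference of -0.12. Of 3 erythroid genes tested, 0 were called. The endothelial, smooth muscle and pericyte, macrophage and epicardial sums overlapped between treatments. Of 9 macrophage genes tested 1 was called, higher, and 7 were at an unadjusted p under 0.05, with a median log2 difference of -0.80. The part of replicate 3 and of these markers in the values below was not tested.

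Dlk1 read 4.48, 2.81 and 1.52 FPKM with DMSO and 14.3, 14.8 and 9.37 with TSA. Every TSA library was above every DMSO library. The log2 change was 1.86 ± 0.31 with an adjusted p of 0.0283 in limma, and an exact two-sided permutation test over the 6 libraries gave p = 0.1, the smallest it can give. Without both replicate 3 libraries the change was 1.77, with an adjusted p of 0.00563. The adjusted p was above the threshold without DMSO replicate 2 (0.0893), TSA replicate 1 (0.108) or TSA replicate 2 (0.131).

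Ndn read 32.7, 30.3 and 27.1 FPKM with DMSO and 51.4, 53.4 and 38.3 with TSA, also without overlap. For Ndn the exact permutation test again gave p = 0.1, the smallest it can give. Its log2 difference of 0.64 ± 0.15 had an adjusted p of 0.0693 in limma and was below the size threshold; without both replicate 3 libraries it was 0.72. Cdkn1c read 18.2, 19.2 and 3.53 with DMSO and 32.0, 30.9 and 14.0 with TSA. The groups overlapped through replicate 3, and the log2 difference of 1.06 ± 0.62 had an adjusted p of 0.409. TSA was above DMSO in all 3 pairs of equal replicate number, and with that number as a block the adjusted p was 0.0729. Without both replicate 3 libraries the difference was 0.72, with an adjusted p of 0.00432, again under the size threshold.

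The other 5 genes overlapped between DMSO and TSA. The share of all genes tested that did not overlap was not counted, so overlap here only describes the values. Grb10 read 125, 126 and 184 FPKM with DMSO and 154, 160 and 110 with TSA. Peg3 read 42.7, 44.3 and 18.1 against 40.9, 38.7 and 29.4, and Plagl1 read 36.9, 34.1 and 9.29 against 31.2, 31.1 and 11.7. Mest read 48.8, 59.7 and 10.1 against 35.3, 33.0 and 17.0, and Zim1 read 7.92, 7.15 and 1.67 against 6.32, 5.44 and 3.59. In DMSO replicate 3 was the lowest for all 8 genes but Grb10, for which it was the highest. Without both replicate 3 libraries the log2 difference was 0.32 for Grb10, -0.13 for Peg3, -0.18 for Plagl1, -0.65 for Mest and -0.31 for Zim1, all under the size threshold. Of the other imprinted genes 26 were tested and 0 passed both thresholds in limma, with 6 at an unadjusted p under 0.05, and limma-voom on estimated reads also called 0. Igf2 read 36.2, 40.7 and 24.5 FPKM with DMSO against 71.1, 67.4 and 57.0 with TSA, a log2 difference of 0.95 ± 0.20 and an adjusted p of 0.0503.

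**Figure D4:**
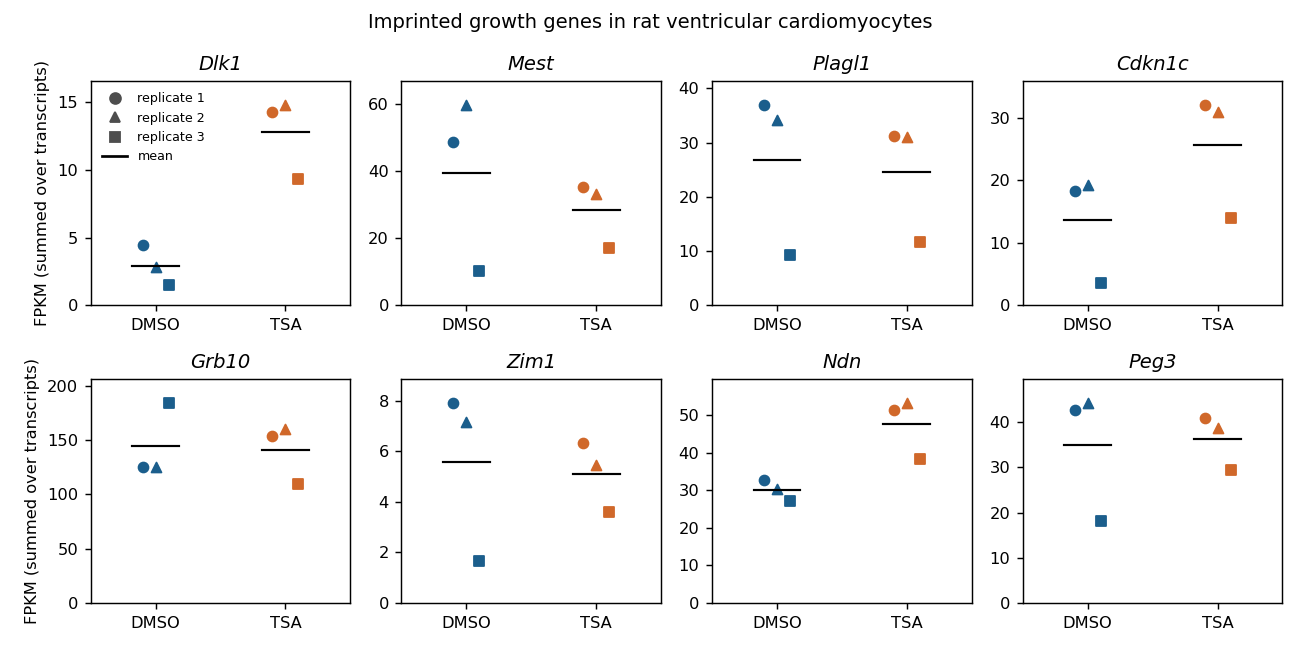
FPKM of the 8 genes with values in the rat files (vertical axis, from 0, on its own scale) with DMSO or TSA; circles, triangles and squares are replicates 1, 2 and 3 and the bar is the mean. Dlk1 and Ndn do not overlap between the groups, and replicate 3 with DMSO is the lowest point in every panel but that of Grb10.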

How the data were processed

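RNA-seq was read from StringTie transcript tables: per the labels and file headers the authors aligned reads with HISAT2 2.1.0 and estimated FPKM, TPM and coverage with StringTie (1.3.5 for mouse, 1.3.4d in the rat headers) on mm10 and rn6; no counts are in them. FPKM was summed by gene name. ATAC-seq peak lists on mm10 were called by the authors with MACS2 for each library; the deposited columns hold a score, the fold enrichment (a ratio), −log10 p and −log10 q values and the summit offset. The lists carry no read depth. H3K27ac HiChIP libraries were not analysed here.

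Genes with FPKM of at least 1 in 2 mouse or 3 rat libraries were tested with limma 3.58.1 (R 4.3.3) on log2(FPKM + 1), all libraries of a species in 1 fit, two-sided, with Benjamini-Hochberg adjustment over all genes tested. The fit was tested on simulated data. p-values measure the spread between libraries. Reads of a gene were estimated as coverage times length over 150 bases. A gene had a peak where one lay within 2.5 kb of a transcript start. Sequences came from the mm10 genome and, for the Zim1 stretch and RefSeq starts, from RefSeq promoter windows (8 of 10 genes had one), and the parts in annotated exons were removed. Other genes were named by a fixed rule: the imprinted genes called at P7 or with TSA, Igf2, H19 and Igf2r, and 3 markers. Genes and lists were chosen with earlier results of these data known. Deviations from the group means correlated between rat libraries of equal replicate number (0.22, 0.19 and 0.35 for numbers 1 to 3). Whether the numbers mark pairs was not tested.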

Additional observations from a re-analysis of the deposited data

How the results depend on the processing

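Of 380 log2 changes of single genes recomputed under another setting, 364 kept their direction and their side of the thresholds, as did 178 of 208 with a library left out; those that turned sign had not passed the test. With size factors 3 of 10 genes were called at P1 in place of 5, and 7 at P3 in place of 5. Over all genes tested 1012 were then called higher and 1201 lower at P1, in place of 1411 and 847. At P3 they were 1367 and 1626, in place of 1814 and 1241. In rat, 0 of 8 genes were called without a filter on low values or with a mean FPKM of at least 5 (0.0529 and 0.0503 for Dlk1), and 0 to 1 with a library left out. From P1 to P7 the 4 calls became 2 to 5 with a library left out. Of the other imprinted genes, a mean FPKM of at least 5 left 21 tested in place of 32. Of these 21, 6 were called at P1, 7 at P3 and 2 from P1 to P7. In rat 0 to 2 were called with a library left out. Without both replicate 3 libraries, an alternative chosen after seeing the data, 1 was called in rat. The share of all genes is not set beside these counts of other imprinted genes, so nothing is read from them.

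At 1 kb, 1 gene had a peak in both P1 libraries; the RefSeq starts, chosen after seeing the data, gave 2, and a single P1 library 4 to 7. With equal numbers of top peaks 2 genes had one at P3, and among the better-scoring 50% of each list 3 at E18.5 and 5 at P3. These counts only describe the settings, since the share of all genes under each is not set beside them.

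Peg3 at P7 against E18.5 was 0.15 on TPM and -0.26 to 0.058 with a library left out. Meg3 from P1 to P7 was -0.31 to 0.55 with a library left out. In rat, leaving out a library gave -0.63 to 0.43 for Plagl1, -0.97 to 0.26 for Mest, -0.27 to 0.36 for Peg3, -0.13 to 0.15 for Grb10, -0.51 to 0.36 for Zim1 and -0.058 to 0.35 for the median; without both replicate 3 libraries Peg3 was -0.13, Grb10 0.32 and Zim1 -0.31. The cause was not tested.

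With the replicate number as a block, Ndn in rat had an adjusted p of 0.0388 at the same change of 0.64, and Dlk1 0.0245. In mouse the correlations between libraries of equal replicate number ran from -0.10 to 0.17, and the block changed the call of none of the 10 genes. With 2 libraries per age and no read counts in the files, small differences in low genes such as Zim1 are poorly resolved.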

Other observations

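The transcript split of Mest at E18.5 and of Peg10 at P7 differed between the 2 libraries more than the gene sums did. At E18.5 the Mest transcript that starts at position 30738050 of chromosome 6 read 263 FPKM in replicate 1 and 68.7 in replicate 2, and the one that starts at 30733506 read 21.1 and 264. For Peg10 at P7, the transcript starting at 4747406 read 12.1 and 0.00183 FPKM in the 2 libraries, and the one starting at 4747306 read 0.521 and 14.9. The Mest peak lay at the first of these starts, with a summit 126 bp into the transcript.

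Transcripts of Meg3 did not move together. The one that starts at 109541005 on chromosome 12 read 13.1 and 18.7 FPKM at E18.5 and 4.32 and 6.28 at P7, while the short one that starts at 109549157 read 9.14 and 14.2 at E18.5 and 13.4 and 18.2 at P7. A peak 188 bp upstream of the second start was listed in P1 replicate 1 and P3 replicate 1 only. Differences between transcripts were not tested.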
